A study of Mus musculus with 12 samples.

Results

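The interferon regulatory factors (IRFs) are transcription factors that bind interferon-responsive DNA elements, and 7 IRF genes (Irf1, Irf2, Irf3, Irf4, Irf5, Irf8 and Irf9) together with Spi1, which encodes their DNA-binding partner PU.1, were followed in mouse neutrophils and macrophages exposed to calcitonin gene-related peptide (CGRP). The 8 genes were taken by gene name from the count tables of both cell types, which list 52636 genes, and all 8 were present in each. CGRP is a neuropeptide released by sensory neurons, and the question put to the cells was how their transcriptome responds to it. Neutrophils and monocytes were isolated with immunomagnetic kits from bone marrow of C57BL/6 J mice aged 8 to 12 weeks with no genetic modification stated. Neutrophils were used fresh and received 1 nM CGRP or saline (PBS) for 4 h. Monocytes were first kept for 3 days with 10 ng per ml of M-CSF, a growth factor that turns them into macrophages, and then received the same treatments. Each of the 4 groups held 3 libraries, so that 12 libraries were compared, with 2002559 to 3631989 counted reads each. A floor of 3 counts corresponded to 0.826 to 1.5 per 1000000 counted reads, before scaling. CPM are the reads of a gene per 1000000 reads of the scaled library. Changes are given as log2 of the CGRP level over the saline level. The labels do not say whether the libraries came from separate mice, so p-values measure the spread between these libraries, which may be technical. In bulk RNA, fewer cells of a type and less RNA per cell cannot be told apart.

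IRF proteins share an N-terminal DNA-binding domain that recognises GAAA-containing sequence. IRF3 and IRF5 are activated by phosphorylation after nucleic acid and Toll-like receptor sensing, and IRF9 is the DNA-binding subunit of the ISGF3 complex that carries the type I interferon response. IRF1 activates and IRF2 mostly opposes transcription at interferon-responsive promoters. IRF4 and IRF8 bind DNA weakly alone and act with PU.1 or with BATF and JUN proteins, and PU.1 and IRF8 are known as lineage factors of monocytes, macrophages and dendritic cells, while loss of IRF8 turns progenitors towards granulocytes.

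Because Irf8 was the member that passed the test for CGRP, its promoter is shown, with those of Irf1 and Irf2, the other members whose promoter held a match to the interferon gamma-activated site (GAS) motif. The sequences are the 250 bases before the transcription start, from RefSeq on GRCm38.p6, and capitals mark matches to any of the motifs searched.
Irf8, chr8:120736108-120736357 (+): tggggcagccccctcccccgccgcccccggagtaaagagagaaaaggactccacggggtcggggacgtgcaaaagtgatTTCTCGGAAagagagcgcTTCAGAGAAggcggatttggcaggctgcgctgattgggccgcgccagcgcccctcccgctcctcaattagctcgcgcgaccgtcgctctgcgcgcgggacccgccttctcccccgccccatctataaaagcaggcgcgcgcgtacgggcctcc
Irf1, chr11:53769764-53770013 (+): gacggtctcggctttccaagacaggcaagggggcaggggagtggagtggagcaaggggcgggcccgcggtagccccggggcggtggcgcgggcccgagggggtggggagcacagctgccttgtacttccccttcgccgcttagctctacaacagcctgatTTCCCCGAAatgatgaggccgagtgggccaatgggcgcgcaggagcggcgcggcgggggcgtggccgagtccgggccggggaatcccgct
Irf2, chr8:46739495-46739744 (+): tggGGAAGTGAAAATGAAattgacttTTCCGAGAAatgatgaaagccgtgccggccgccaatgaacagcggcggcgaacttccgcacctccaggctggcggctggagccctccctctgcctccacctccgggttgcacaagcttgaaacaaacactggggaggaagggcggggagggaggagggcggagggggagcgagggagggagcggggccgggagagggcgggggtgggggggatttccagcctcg
The motifs were searched on both strands of windows that also took in the 50 bases after the start, and 7 of the 8 members had a window. The GAS motif TTCNNNGAA was present in 9.55% of 27025 genes with a window and in 3 of the 7 members. Irf8 held 2 matches, at 171 to 163 and 153 to 145 bases before the start. The core of the interferon-stimulated response element, GAAANNGAA, was found in 9.76% of genes and the ETS-IRF composite GGAANNGAA in 9.42%, and among the members both were found in Irf2, where the matches overlap each other by 3 bases. The cAMP response element TGACGTCA, the element bound by CREB downstream of receptors that raise cAMP as the CGRP receptor does, occurred in 2.03% of genes and in 0 of the 7 members. Its shorter form TGACG, which is contained in the full element, occurred in 23.0% of genes and in 0 of the members. A match describes the letters in the window and not occupancy.

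The labelled cell types were checked against marker genes. All 10 neutrophil markers were detected in every neutrophil library, at a summed 155930 to 228000 CPM, against 305 to 454 CPM in macrophage libraries. The 10 macrophage and monocyte markers summed to 33055 to 47777 CPM in macrophages, with Apoe the most abundant. In the neutrophil libraries the same markers summed to 3790 to 4871 CPM, markers of erythroid cells to 4002 to 5166 CPM, and markers of myeloid progenitors to 3089 to 3831 CPM. Ly6c2 was the most abundant of the macrophage and monocyte markers there, at 1895 to 2995 CPM. The macrophage libraries held it at 27.3 to 43.0 CPM. Transcripts that mark erythroid cells were thus present in the neutrophil libraries. Whether the macrophage and monocyte sum or the progenitor sum came from cells other than neutrophils was not tested.

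In neutrophils, CGRP lowered Irf8 and no other member passed the test. Across the transcriptome limma-voom called 2.53% of 9819 tested genes at an adjusted p under 0.05, and 1.02% as lower with CGRP. All 8 members were tested, and 1 of 8 was called. Irf8 stood at 136, 110 and 145 CPM in the 3 saline libraries and at 70.5, 69.9 and 78.4 CPM in the 3 CGRP libraries. Every CGRP library was below every saline library. The saline mean of 130 ± 18.4 CPM (SD, n = 3) rested on 441, 368 and 409 reads, and the CGRP mean of 73.0 ± 4.74 CPM (n = 3) on 223, 240 and 180 reads. The log2 change was -0.83 (SE 0.12, 95% confidence interval -1.07 to -0.59, adjusted p = 1.83e-04), which left 56.3% of the saline level and ranked 35 of 9819 genes by p. Leaving out each neutrophil library in turn gave -0.96 to -0.75, with an adjusted p of at most 0.00309. No other gene with counts shares the Irf8 locus (chr8:120736358-120756694): Gm20388, a gene model annotated over it, had 0 counts in every library.

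**Figure D1:**
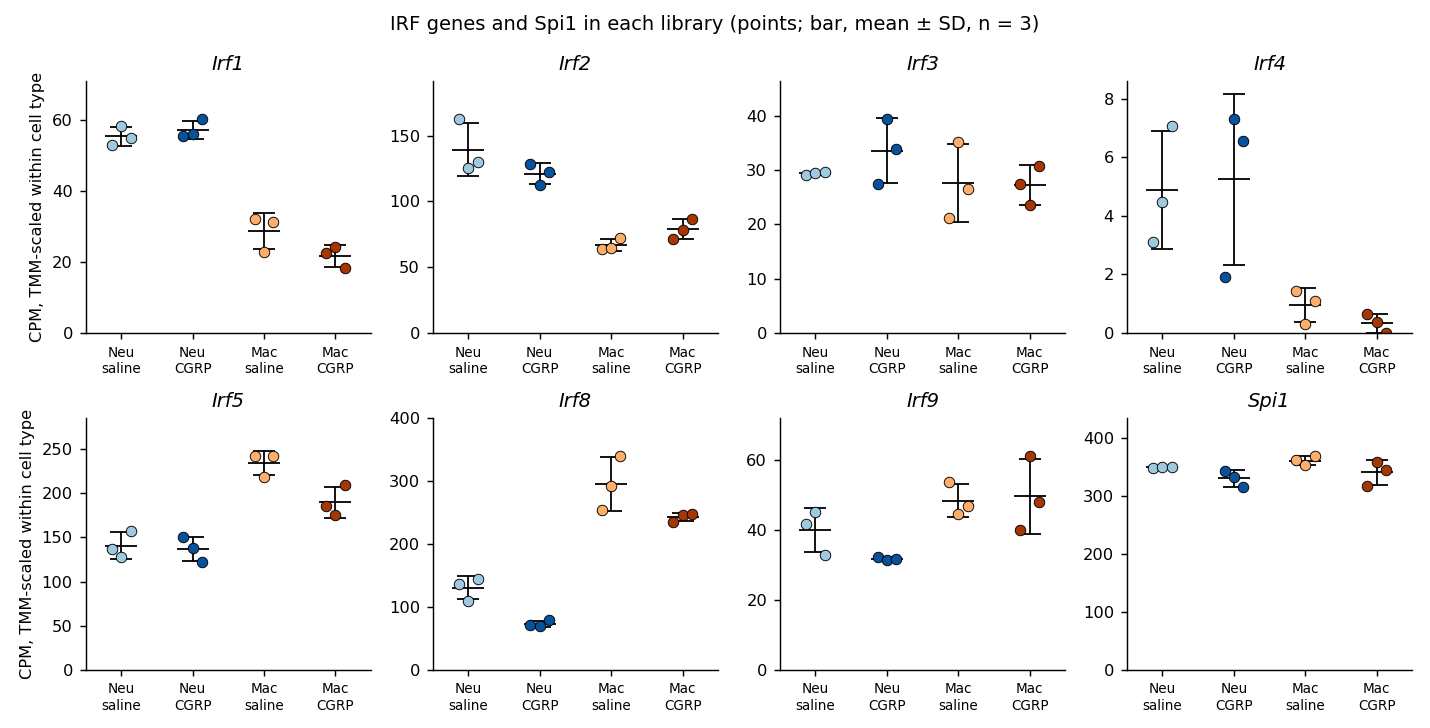
Level of each of the 8 genes in every library, in CPM on a linear axis from 0, for neutrophils (Neu, blue) and macrophages (Mac, orange) with saline (pale) or CGRP (dark). Points are libraries and bars the mean ± SD (n = 3). In neutrophils the 3 Irf8 points with CGRP lie at 69.9 to 78.4 CPM, below the 3 saline points at 110 to 145 CPM.

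The remaining lineage factors were measured beside Irf8. Spi1, its partner, was at 349, 350 and 350 CPM with saline and at 344, 333 and 315 CPM with CGRP. The groups did not overlap, but the log2 change was -0.08 (SE 0.08, 95% confidence interval -0.24 to 0.08, adjusted p = 0.748), so the interval excluded a change as large as that of Irf8. Irf4, the closest relative of Irf8, was scarce in neutrophils, with 10, 15 and 20 reads in the saline libraries and 6, 25 and 15 reads in the CGRP libraries. At this depth its change could not be bounded tightly (log2 change -0.03, 95% confidence interval -0.96 to 0.91), and its sign turned under several other settings.

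Among the members that act in the interferon pathway, Irf9, the DNA-binding subunit of ISGF3, was at 41.8, 45.2 and 32.9 CPM with saline and at 32.3, 31.5 and 31.8 CPM with CGRP. The groups did not overlap, with a log2 change of -0.32 (SE 0.15) that did not pass adjustment (adjusted p = 0.364). Groups without overlap were found for 3 of the 8 members (Irf8, Irf9 and Spi1) and for 17.8% of all tested genes. Irf2, the antagonist of IRF1, had 162, 125 and 130 CPM against 128, 113 and 122 CPM, and overlapping groups (log2 change -0.20, SE 0.11, adjusted p = 0.472). Irf1, which activates antigen presentation genes, showed 55.3 ± 2.76 CPM with saline and 57.1 ± 2.60 CPM with CGRP (n = 3 each), a log2 change of 0.04 with a 95% confidence interval of -0.20 to 0.28. The sensing factor Irf3 showed a log2 change of 0.18 (SE 0.16, adjusted p = 0.707), and Irf5 of -0.03 (SE 0.10, adjusted p = 0.961). The median log2 change of the 8 members was -0.05, and that of all tested genes 0.00080.

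**Figure D2:**
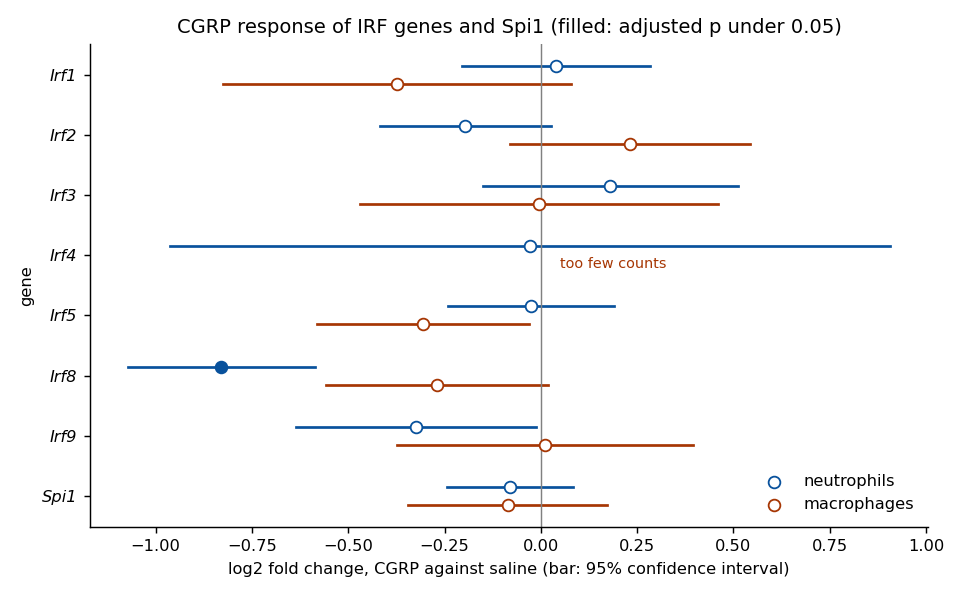
Log2 change of each gene with CGRP against saline (horizontal axis) in neutrophils (blue) and macrophages (orange), with its 95% confidence interval. The filled point, Irf8 in neutrophils at -0.83, passed an adjusted p of 0.05, and open points did not. Irf4 had too few counts in macrophages for a test.

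In macrophages none of the 7 members tested passed, although 7.44% of 9393 genes did (3.97% as lower). Irf5, which drives inflammatory cytokine genes in macrophages, was at 242, 218 and 242 CPM with saline and at 185, 175 and 209 CPM with CGRP. The groups did not overlap, and the log2 change of -0.31 (SE 0.13, 95% confidence interval -0.58 to -0.03) had an unadjusted p of 0.0318 and an adjusted p of 0.194. The last 1045 bases of the Irf5 gene (chr6:29526625-29541871) are shared with Tnpo3 on the opposite strand. Tnpo3 had up to 245 reads in a macrophage library and a log2 change of -0.13 (adjusted p = 0.692), and reads in the shared stretch cannot be assigned, since the strand setting of the counting is not given in the sources used here. Irf8 was at 254, 293 and 340 CPM with saline and at 236, 246 and 248 CPM with CGRP. The groups did not overlap, with a log2 change of -0.27 (SE 0.14, 95% confidence interval -0.56 to 0.02, adjusted p = 0.288). Irf5 and Irf8 were the 2 members of 7 whose groups did not overlap, and 24.2% of all tested genes had such groups.

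The other macrophage values did not separate the groups. Irf1 was at 32.1, 22.9 and 31.3 CPM with saline and at 22.7, 24.2 and 18.2 CPM with CGRP (log2 change -0.37, SE 0.21, adjusted p = 0.361). Irf2 had 66.9 ± 4.71 CPM with saline and 79.0 ± 7.72 CPM with CGRP (n = 3 each, log2 change 0.23, SE 0.15, adjusted p = 0.423). Irf3, Irf9 and Spi1 lay close to no change, at -0.0050 (SE 0.22), 0.01 (SE 0.18) and -0.09 (SE 0.12) on the log2 scale. Irf4 was near the floor, with 5, 1 and 3 reads in the saline libraries and 2, 1 and 0 in the CGRP libraries, and was not tested. The median log2 change of the 7 tested members was -0.09, against 0.0050 for all genes tested. By an unadjusted p under 0.05, 1 of the 7 members would have passed, and edgeR and DESeq2 each called 0. Such values were common among all genes. That member, Irf5, ranked 1539 of 9393 genes by p, and Irf8, next at an unadjusted p of 0.0643, ranked 2098.

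An interaction term over the 12 libraries tested whether a member responded differently in the 2 cell types. It was called for 2.38% of 10694 genes and for 0 members, and edgeR and DESeq2 called 0 members too. Irf8 and Irf2 were the 2 members at an unadjusted p under 0.05, ranked 413 and 1003 of the 10694 genes by p. Irf1, next at an unadjusted p of 0.0938, ranked 1989. For Irf8 the log2 change in macrophages exceeded that in neutrophils by 0.57 (SE 0.18, 95% confidence interval 0.20 to 0.94, adjusted p = 0.110). It passed when libraries were weighted by their quality (0.66, adjusted p = 0.0187) and without saline macrophage replicate 3 (0.64, adjusted p = 0.0429). Hence the Irf8 response, called in neutrophils and not in macrophages, was not shown to differ between them. For Irf2 the difference was 0.44 (SE 0.18, adjusted p = 0.282).

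The saline libraries show the members' levels without CGRP, at the same 4 h as the treated libraries. Cell type, 3 days of culture with M-CSF and the table itself cannot be told apart in this comparison, in which 67.9% of 10694 genes were called (32.5% higher and 35.4% lower in macrophages). CPM values here were scaled over all 12 libraries. Irf8 was at 139, 112 and 147 CPM in saline neutrophils and at 250, 290 and 335 CPM in saline macrophages, without overlap. Its log2 difference was 1.13, higher in macrophages (SE 0.12, adjusted p = 2.37e-08). Irf5 was likewise higher, at 231 ± 13.0 CPM against 143 ± 14.7 CPM in neutrophils (n = 3 each, log2 difference 0.69, SE 0.12, adjusted p = 1.48e-05). Irf1 and Irf2 were lower in macrophages. Irf1 was at 53.8, 59.9 and 55.6 CPM in neutrophils and at 31.7, 22.7 and 30.8 CPM in macrophages (log2 difference -1.01, SE 0.15, adjusted p = 4.11e-06). Irf2 was at 142 ± 20.3 CPM in neutrophils and 66.1 ± 4.52 CPM in macrophages (n = 3 each, log2 difference -1.10, SE 0.13, adjusted p = 9.49e-08). These members passed whichever of the 12 libraries was omitted.

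Spi1 and 2 IRF genes did not separate the saline cells. Spi1 stood at 355, 360 and 355 CPM in neutrophils and at 357, 350 and 363 CPM in macrophages, a log2 difference of 0.00039 with a 95% confidence interval of -0.20 to 0.20. Irf9 had 40.8 ± 6.71 and 47.8 ± 4.71 CPM (n = 3 each, log2 difference 0.23, SE 0.16, adjusted p = 0.213), and Irf3 30.0 ± 0.349 and 27.3 ± 7.10 CPM (log2 difference -0.17, SE 0.19, adjusted p = 0.436). Irf4 passed the filter through its neutrophil counts alone, so its call has no weight of its own. It gave 9 reads in the 3 saline macrophage libraries and 45 in the 3 saline neutrophil libraries, which put macrophages at 20.5% of the neutrophil share (95% exact interval 8.83 to 42.6, counting error only). With CGRP the neutrophil Irf8 mean was 73.6 CPM on this scale, further from the 292 CPM of saline macrophages than the saline neutrophil mean of 133 CPM.

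**Figure D3:**
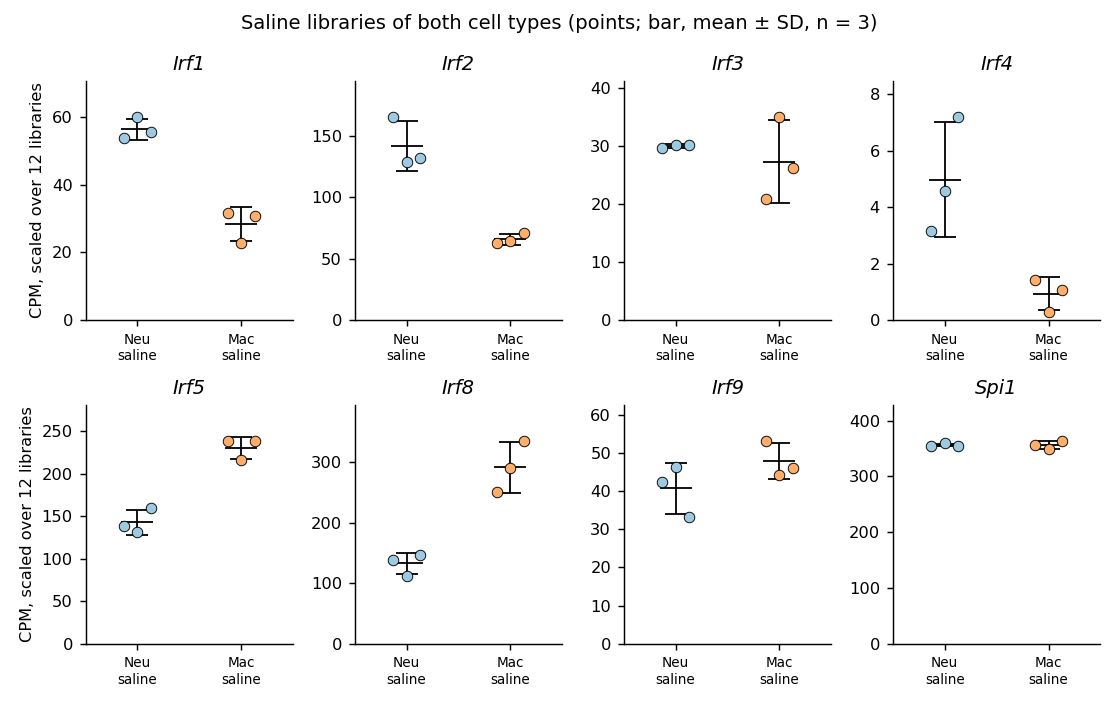
Level of each gene in the 3 saline neutrophil (Neu) and 3 saline macrophage (Mac) libraries, in CPM scaled over all 12 libraries on a linear axis from 0. Points are libraries and bars the mean ± SD (n = 3). Irf5 and Irf8 lie higher and Irf1, Irf2 and Irf4 lower in macrophages, and Spi1 lies at 350 to 363 CPM in both.

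The members did not move as 1 block. Over the 12 libraries, after centring log2 CPM on each cell type's mean, the Pearson r of Irf8 with the other members ran from -0.17 (Irf3) to 0.56 (Spi1), a description over libraries that share the treatment. The genes most like Irf8 by the same measure were Utp18 (r = 0.95), a factor of ribosomal RNA processing, Gm9949 (r = 0.91) and Sh3glb2 (r = 0.90). Of these, Gm9949 was called in neutrophils (log2 change -1.25, adjusted p = 0.0220, and called in 1 of the 6 fits without 1 library). Utp18 and Sh3glb2 were not called there (adjusted p = 0.172 and 0.216). These genes were picked for the highest r over libraries that include the fall of Irf8, so their own lower values follow from the choice. Besides Irf5, Irf3 and Irf9 share sequence with expressed neighbours at their 5′ ends. Irf3 overlaps Bcl2l12 on the opposite strand (up to 57 reads), and Irf9 overlaps the last bases of Rnf31 on the same strand (up to 42 reads); neither neighbour was called for CGRP in either cell type.

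Other IRF and cofactor genes were followed next. Of 5 listed, 4 were tested in each cell type. By limma-voom 0 of 4 were called in neutrophils, beside 2.53% of all genes, with 0 at an unadjusted p under 0.05. There Irf7, the amplifier of type I interferon production, averaged 32.6 ± 1.48 CPM without and 38.6 ± 2.94 CPM with CGRP (log2 change 0.25, SE 0.14, adjusted p = 0.472), and Irf2bp2, an IRF2 corepressor, 92.2 ± 23.7 and 81.3 ± 15.6 CPM. In macrophages 1 of 4 was called, beside 7.44% of all genes, and 3 of 4 log2 changes were positive. Irf2bpl, an IRF2-binding protein relative, fell from 59.7 ± 4.13 to 28.1 ± 5.06 CPM (n = 3 each, log2 change -1.07, SE 0.18, adjusted p = 0.00123). Irf2bp2 averaged 53.3 ± 27 CPM there without and 84.2 ± 26.1 CPM with CGRP, with overlapping groups (log2 change 0.72, SE 0.28, adjusted p = 0.149). The macrophage count was 2 with quality weights, with the replicate block, and without saline replicate 3 or CGRP replicate 1.

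Of the genes for proteins that bind DNA with IRFs and PU.1, 15 were tested in macrophages, where 2 rose, 2 fell and 11 did not pass, beside 7.44% of all genes called. In neutrophils 1 of 16 rose, beside 2.53% of all genes. Batf3, which pairs with JUN and with IRF8 at dendritic cell enhancers, fell in macrophages from 26.6 ± 2.62 to 3.37 ± 1.58 CPM (n = 3 each, log2 change -2.92, SE 0.36, adjusted p = 5.83e-05). Jun, the AP-1 subunit, fell from 201 ± 35.7 to 56.9 ± 6.05 CPM (log2 change -1.80, SE 0.16). Junb rose from 189 ± 28.2 to 400 ± 50.7 CPM (log2 change 1.08, SE 0.14), and Ets2, of the same family as PU.1, from 16.9 ± 1.16 to 51.4 ± 4.57 CPM (1.6, SE 0.19). These 4 passed in each of the 6 fits without 1 macrophage library. In neutrophils Junb rose by 0.35 (SE 0.09, adjusted p = 0.0390), a call that was lost in 4 of 6 such fits (without saline replicates 1 and 2 and CGRP replicates 2 and 3, adjusted p up to 0.258) and with DESeq2 or 1 fit over all 12 libraries (up to 0.273). The median was -0.05 in neutrophils and 0.06 in macrophages, beside 0.00080 and 0.0050 for all genes.

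None of the interferon genes listed gave a measurable transcript. All 9 interferon genes listed had at most 1 read in any neutrophil library and 0 in any macrophage library. Of the sensors and kinases that activate IRF3, IRF5 and IRF7, 0 of 21 tested were called in neutrophils by limma-voom, beside 2.53% of all genes, with 4 at an unadjusted p under 0.05. Of the most abundant, Unc93b1, the chaperone of endosomal Toll-like receptors, stood at 218 ± 14 CPM without and 226 ± 23.5 CPM with CGRP, and Ikbkb, the kinase that activates IRF5, at 92 ± 11.7 and 102 ± 5.2 CPM. In macrophages 1 of 22 rose and 1 fell, beside 7.44% of all genes called, and 10 of 22 were at an unadjusted p under 0.05. Among all genes, Irf5 at an unadjusted p of 0.0318 ranked 1539 of 9393 by p, and Irf8 at 0.0643 ranked 2098. The list thus held a larger share of such values than all genes did. It was chosen with earlier results known, so nothing is read from that share. The macrophage count was 6 with quality weights and 4 with the replicate block. Leaving out 1 library gave 1 (saline replicate 1 or CGRP replicate 2) to 5 (CGRP replicate 1). The list medians were -0.02 and 0.04. Slc15a4, the lysosomal transporter that IRF5 activation downstream of endosomal receptors needs, fell from 70.6 ± 7.34 to 40.1 ± 6.39 CPM (log2 change -0.82, SE 0.17, adjusted p = 0.00571). Tank, a scaffold of the kinase TBK1, rose by 0.76 (SE 0.20, adjusted p = 0.0250) and lost its call without saline replicate 1, CGRP replicate 1 or CGRP replicate 2 (adjusted p up to 0.126).

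At the level of the interferon receptors, 1 of 15 genes was called in neutrophils (median 0.02), beside 2.53% of all genes, and 2 of 12 in macrophages (median -0.0039), beside 7.44%. The macrophage count was 5 with quality weights and 2 to 4 without 1 library, the highest without saline replicate 3. Ifngr1, the ligand-binding chain of the interferon gamma receptor, rose in macrophages from 329 ± 16.8 to 633 ± 20.8 CPM (n = 3 each, log2 change 0.95, SE 0.12, adjusted p = 8.33e-05). Ptpn6, which encodes the phosphatase SHP-1, fell in both cell types. It went from 576 ± 43.9 to 431 ± 21.6 CPM in neutrophils (log2 change -0.42, SE 0.08, adjusted p = 0.00499) and from 247 ± 18.4 to 119 ± 9.82 CPM in macrophages (-1.05, SE 0.13, adjusted p = 8.33e-05). Without saline replicate 1 the neutrophil call of Ptpn6 was lost (adjusted p = 0.0825).

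Of the targets of ISGF3, the complex that contains IRF9, 28 were tested in each cell type. In neutrophils 1 rose and 1 fell, beside 2.53% of all genes called there, with 16 of 28 log2 changes negative and a list median of -0.13. In macrophages 1 rose and 2 fell, beside 7.44% of all genes. There 24 of 28 log2 changes were negative, called or not, and the median was -0.20, beside 0.0050 for all genes. Cmpk2, a mitochondrial nucleotide kinase gene, fell in neutrophils from 50.8 ± 6.14 to 25.3 ± 2.27 CPM (log2 change -0.99, SE 0.15, adjusted p = 3.70e-04) and kept its call in each fit without 1 library. Trim25, a ubiquitin ligase of RIG-I signalling, rose in both cell types, by 0.61 in neutrophils (SE 0.15, adjusted p = 0.0343) and by 1.55 in macrophages (SE 0.19, adjusted p = 5.83e-05). Its neutrophil call held in 1 of 6 fits without 1 library, that without CGRP replicate 3, with an adjusted p of up to 0.253, and was lost with DESeq2 or 1 fit over all 12 libraries (up to 0.121). In macrophages Ifit3 fell from 6.90 ± 0.805 to 1.62 ± 0.566 CPM (log2 change -1.98, SE 0.45, adjusted p = 0.0117) and Samd9l from 20.8 ± 0.264 to 9.28 ± 2.86 CPM (-1.14, SE 0.26, adjusted p = 0.0125). The call of Ifit3 was lost without saline replicate 1, CGRP replicate 2 or CGRP replicate 3 (adjusted p up to 0.111), and that of Samd9l without CGRP replicate 3 (0.0609).

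Of the targets of IRF1 and interferon gamma, 0 rose and 2 fell among 18 tested in neutrophils, beside 1.02% of all genes called lower, with a median of -0.17 beside 0.00080 for all genes. Both encode immunoproteasome subunits. Psmb8 went from 325 ± 6.02 to 257 ± 13.5 CPM (log2 change -0.34, SE 0.08, adjusted p = 0.0249) and Psmb9 from 128 ± 3.06 to 95 ± 9.78 CPM (-0.43, SE 0.10, adjusted p = 0.0207). Psmb8 was called in 1 of 6 fits without 1 library (that without CGRP replicate 1) and Psmb9 in 2 of 6 (those without saline replicate 3 or CGRP replicate 1), with an adjusted p of up to 0.145 and 0.126. The neutrophil count was 0 without TMM and in 1 fit over all 12 libraries, and Psmb8 was also lost with thinned counts (adjusted p up to 0.120). In macrophages, where 1 of 18 rose and 1 fell beside 7.44% of all genes called (median 0.05), Cd274, the checkpoint ligand PD-L1, rose by 0.97 (SE 0.25, adjusted p = 0.0281) and Casp1, the inflammasome protease, fell by 0.66 (SE 0.19, adjusted p = 0.0397). Each of these was called in 2 of 6 fits, those without saline replicate 3 or CGRP replicate 1, with an adjusted p of up to 0.155 and 0.170, and Cd274 was lost without TMM (0.0508).

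**Figure D4:**
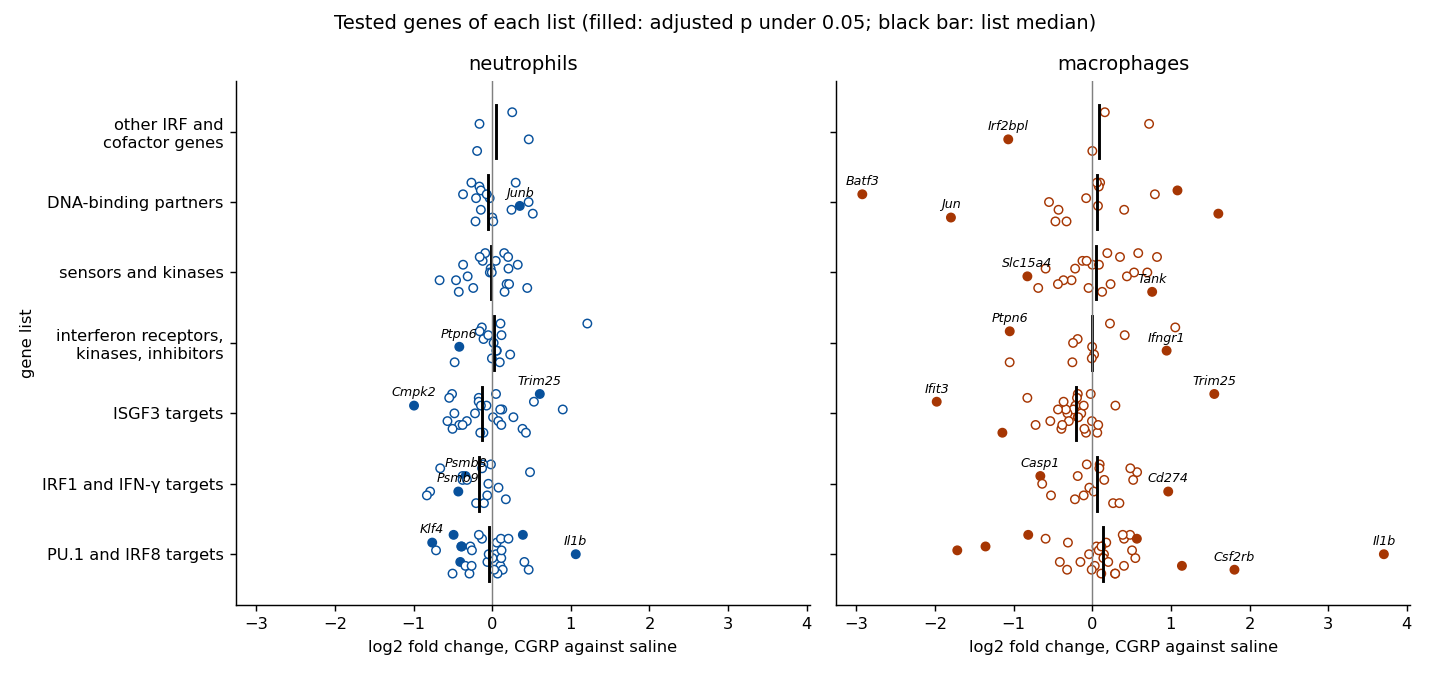
Log2 change with CGRP against saline (horizontal axis) of the tested genes in 7 gene lists, in neutrophils (left, blue) and macrophages (right, orange). Filled points passed an adjusted p of 0.05, black bars are list medians and up to 2 called genes of each list are named. The points reach from -2.92 (Batf3) to 3.71 (Il1b) in macrophages and from -0.99 (Cmpk2) to 1.21 (Usp18, open) in neutrophils.

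Targets of PU.1 and IRF8 in myeloid cells were called in both directions. In neutrophils 2 of 31 rose and 4 fell, beside 2.53% of all genes called, with a median of -0.04. In macrophages 4 of 31 rose and 3 fell, beside 7.44%, with a median of 0.14. The count in neutrophils was 4 without saline replicate 1 or 2 and in 1 fit over all 12 libraries. That in macrophages was 6 to 9 without 1 library, and reached 11 with the replicate block or 1 fit over all 12 libraries and 13 with quality weights. Klf4, a monocyte transcription factor gene that IRF8 activates, fell in neutrophils from 48.9 ± 2.41 to 28.6 ± 4.6 CPM (n = 3 each, log2 change -0.76, SE 0.15, adjusted p = 0.00402). Ccr2, the chemokine receptor of inflammatory monocytes, fell from 310 ± 11.4 to 220 ± 14.3 CPM (log2 change -0.49, SE 0.08, adjusted p = 0.00134). Cybb, the catalytic subunit of the phagocyte oxidase and a known PU.1 and IRF8 target, had a log2 change of -0.41 and was likewise lower in CGRP libraries (SE 0.07, adjusted p = 0.00266). Il1b, which encodes interleukin-1β, rose from 90.5 ± 6.67 to 189 ± 26.4 CPM (log2 change 1.06, SE 0.11, adjusted p = 3.22e-06). These 4 calls held in each of the 6 fits without 1 neutrophil library.

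In macrophages Il1b rose from 4.38 ± 0.999 to 57.1 ± 6.34 CPM (n = 3 each, log2 change 3.71, SE 0.29, adjusted p = 6.42e-07) and Csf2rb, the shared receptor chain for GM-CSF and interleukin-3, from 111 ± 27.0 to 385 ± 59.3 CPM (1.81, SE 0.17). Cd180, a Toll-like receptor relative, fell from 58.3 ± 5.76 to 17.7 ± 2.38 CPM (log2 change -1.72, SE 0.20), and Cx3cr1, the fractalkine receptor of monocytes, from 64.7 ± 7.75 to 24.8 ± 3.14 CPM (-1.36, SE 0.18). All 4 held in each fit without 1 macrophage library. Of the IRF4 targets known from alternatively activated macrophages, 0 of 8 were called in neutrophils by limma-voom, beside 2.53% of all genes. There 1 was at an unadjusted p under 0.05, and edgeR called 1. Chil3 was at 4144 ± 591 and 3806 ± 582 CPM there, and the histone demethylase gene Kdm6b at 55.9 ± 4.57 and 54.6 ± 9.48 CPM. The list median was -0.07 in neutrophils. In macrophages 1 of 9 tested IRF4 targets rose, beside 7.44% of all genes called, with 4 at an unadjusted p under 0.05. There 7 log2 changes were positive and 2 negative, with a median of 0.36 beside 0.0050 for all genes. The macrophage count was 0 to 1 without 1 library.

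Cells other than neutrophils express Irf8, and their markers are given beside its fall. In the neutrophil libraries 9 of 10 macrophage and monocyte markers were tested and 0 were called, beside 2.53% of all genes. Of these markers 2 were at an unadjusted p under 0.05, and the median log2 change was -0.04. Their summed level was 4536, 4871 and 4133 CPM with saline and 4744, 3840 and 3790 CPM with CGRP, with overlapping groups. Ly6c2 of inflammatory monocytes, the most abundant, was at 2661, 2995 and 2267 CPM with saline and 2618, 2151 and 1895 CPM with CGRP (log2 change -0.25, adjusted p = 0.304), and Mertk was at 0 in saline replicate 1. Adgre1, which encodes the macrophage surface protein F4/80, was at 43.3, 43.4 and 34 CPM in saline libraries and 26.6, 29.7 and 28.8 CPM in CGRP libraries (log2 change -0.50, adjusted p = 0.0934), without overlap between the groups. Ccr2 and Klf4, described above as genes of monocytes, are not in this marker list and were called lower with CGRP in these libraries. All 6 markers of myeloid progenitors were tested and 0 were called by limma-voom (2 at an unadjusted p under 0.05), with 5 log2 changes negative and a median of -0.06. Their summed level was 3574, 3831 and 3427 CPM with saline and 3476, 3089 and 3489 CPM with CGRP, with overlapping groups, none at 0, and Elane the most abundant in 4 of 6 libraries. Kit, the stem cell factor receptor gene, was lower in each CGRP library, at 5.06, 4.37 and 6.1 CPM against 9.9, 8.03 and 9.55 CPM (log2 change -0.83, adjusted p = 0.169). Plasmacytoid dendritic cell markers summed to 106, 99.4 and 96.9 CPM with saline and 98.3, 93.5 and 99.8 CPM with CGRP, with Ly6d the most abundant and Klk1 at 0 in 5 of 6 libraries. Of the 3 tested, none was called, 2 log2 changes were positive and 1 was negative, and the median was 0.03. The negative change was that of Cox6a2, at 14.5, 19.9 and 17.7 CPM against 10.8, 10.8 and 8.28 CPM (log2 change -0.77, adjusted p = 0.0843). Siglech was at 4.95, 3.27 and 2.83 CPM with saline and at 5.69, 5.25 and 6.53 CPM with CGRP, without overlap. Conventional dendritic cell markers summed to 13.8 to 22 CPM with saline and 13.9 to 21.3 CPM with CGRP, with Cd209a the most abundant in 5 of 6 libraries and Xcr1 at 0 in 5 of 6. All 7 B cell and plasma cell markers were tested and 0 were called. The part of these cells in the Irf8 result was not tested. In macrophages 1 of 10 macrophage and monocyte markers was called, beside 7.44% of all genes. This was Apoe, with a log2 change of 0.46 (adjusted p = 0.0261, called in 3 of 6 fits without 1 library and lost with edgeR at 0.0725). All 10 had a positive log2 change there, with a median of 0.31 beside 0.0050 for all genes and 4 at an unadjusted p under 0.05, and their summed level was 33055 to 36924 CPM with saline and 41866 to 47777 CPM with CGRP. The 8 neutrophil markers tested in macrophages were also all positive, with a median of 0.38, 0 called and 2 at an unadjusted p under 0.05. They and the 2 not tested summed to 305 to 396 CPM with saline and 419 to 454 CPM with CGRP, with S100a8 the most abundant. The part of these markers in the macrophage results was not tested.

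The receptor genes were expressed in both cell types. Ramp1, the co-receptor that gives the receptor its CGRP selectivity, was at 257 ± 12.6 CPM in saline neutrophils and 187 ± 9.91 CPM with CGRP (log2 change -0.46, SE 0.09, adjusted p = 0.00336). In macrophages it was at 117 ± 14.7 and 109 ± 15.1 CPM (-0.09, SE 0.15, adjusted p = 0.808). Calcrl, the G protein-coupled subunit, fell in macrophages from 18.1 ± 4.83 to 5.15 ± 0.992 CPM (log2 change -1.75, SE 0.33, adjusted p = 0.00335), and in neutrophils it was at 29.5 ± 4.48 and 18.5 ± 4.20 CPM (-0.64, SE 0.19, adjusted p = 0.0864). The neutrophil change of Calcrl passed with thinned counts (adjusted p = 0.0156), under no other setting and in 0 of 6 fits without 1 library.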

How the data were processed

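Neutrophils and M-CSF monocyte-derived macrophages were profiled by 3′ RNA-seq with poly(dT)-primed libraries. The authors ran the nf-core RNA-seq pipeline with its molecular identifier option, aligned reads with STAR to GRCm38 and counted them per gene with featureCounts, and the deposited tables hold these raw counts for each library. The strand setting and annotation release are not given in the sources used here. CPM (reads of a gene per 1000000 reads) were computed with TMM scaling factors within each cell type, or over all 12 libraries for comparisons between cell types. A gene named as the most abundant of a list is so by CPM, without length correction.

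Genes passing filterByExpr were tested with limma-voom (R 4.3.3, limma 3.58.1, edgeR 4.0.16) with Benjamini-Hochberg adjustment over all genes tested and a threshold of 0.05. TMM, limma-voom and the threshold follow the study's methods, which do not name this filter. The interaction and the saline comparison used 1 fit over 12 libraries. Unadjusted p under 0.05 were common among all genes. By limma-voom in neutrophils, Irf9 at an unadjusted p of 0.0430 ranked 1156 of 9819 genes, and Irf2 at 0.0821 ranked 1707. Scripts were tested on simulated data. Other settings tried were DESeq2 1.42.0, the quasi-likelihood test of edgeR, other scaling, no filter, quality weights, the replicate number as a block, thinned counts, 1 fit over all libraries, and leaving out each library. No 2 libraries were identical. Gene coordinates came from GENCODE on GRCm38, and promoters from RefSeq.

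The members and gene lists were chosen with earlier results of these data known. Beside the members, genes named were at most 4 called genes of each list and cell type with the largest absolute log2 fold change, or up to 2 of the most abundant as values, the 3 genes most correlated with a called member, genes overlapping a member, Ramp1 and Calcrl. Markers of eosinophils, basophils, platelets, and T and NK cells were also listed. None was called in neutrophils by limma-voom, and in macrophages Cd4 was called at a mean of 6.40 CPM with CGRP (log2 fold change 1.68, adjusted p = 0.0393). The Cd4 call held in 1 of 6 fits without 1 macrophage library, that without saline replicate 3 (log2 fold change 1.20 to 2.08, adjusted p up to 0.202), and was lost with DESeq2 and with library totals without TMM (adjusted p up to 0.0817). Some results for genes of these lists are not reported here.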

Additional observations from a re-analysis of the deposited data

Results flagged for a closer look

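By the interaction test over 12 libraries, the CGRP response of 14 of the 151 list genes tested, markers aside, differed between macrophages and neutrophils at an adjusted p under 0.05 (limma-voom), which is 9.27% beside 2.38% of all genes. The lists were chosen with earlier results known, so nothing is read from that share. Values are the macrophage log2 fold change minus that of neutrophils, and Irf8, at 0.57, was not among them. Of the 14, 12 are described above, and Usp18 (-2.25) and Fcgr2b (1.49) lay outside the rule for named genes and are given because they passed. Differences passing whichever of the 12 libraries was omitted were those of Il1b (2.66), Csf2rb (1.69), Jun (-1.64) and Ifngr1 (0.90). Ets2 (1.10) was lost without saline neutrophil replicate 1 or saline macrophage replicate 1 (adjusted p up to 0.0553), and Cx3cr1 (-0.96) without CGRP macrophage replicate 2 (adjusted p = 0.0600). Junb (0.74) passed in 7 of 12 such fits, Cybb (0.62) and Ptpn6 (-0.62) in 6, Ifit3 (-2.49) in 5, Trim25 (0.96) in 3 and Irf2bpl (-1.52) in 2. Without TMM the differences of Cybb, Junb, Trim25 and Irf2bpl were lost, without a filter on low counts those of Ifit3, Trim25 and Irf2bpl, and with thinned counts those of Ifit3 and Irf2bpl (adjusted p up to 0.262). Cell type and culture cannot be told apart in these differences.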

How the results depend on the processing

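Among the member log2 fold changes, 545 values were recomputed under other settings. Of these 498 kept their direction and side of the threshold, 2 gained the threshold (Irf8 in the interaction) and 45 changed sign, all of values between -0.18 and 0.01. Irf8 in neutrophils ranged from -0.84 to -0.77 and passed under all 9 settings other than leaving out a library.

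For Irf4 in neutrophils (-0.028) the sign turned with edgeR (0.11), DESeq2 (0.10), library totals without TMM (0.013), quality weights (0.075), the replicate block (0.12) and thinned counts (0.094), and ran from -0.46 to 0.61 without 1 library. Without TMM, Irf5 in neutrophils became 0.042 (-0.10 to 0.053 without 1 library), Irf9 in macrophages -0.042 and the Spi1 interaction -0.12. Without a filter the last 2 became -0.0012 and -0.023, and without 1 library they ran from -0.16 to 0.18 and from -0.054 to 0.042. Irf3 in macrophages became 0.093 with quality weights and 0.15 with thinned counts, and ran from -0.20 to 0.19 without 1 library, from -0.39 to 0.0097 in the interaction and from -0.38 to 0.024 between saline cells. Spi1 between saline cells became -0.019 with DESeq2, -0.019 with DESeq2 size factors and -0.00074 with thinned counts, and ran from -0.0096 to 0.0092 without 1 library. Without 1 library Irf2bp2 ran from -0.30 to 0.025, Kdm6b from -0.19 to 0.023, Unc93b1 from -0.018 to 0.13 (neutrophils) and Ramp1 from -0.20 to 0.015 (macrophages), and with quality weights Sh3glb2 became 0.0030 (macrophages). Of 928 such values of other named genes, 120 lost the threshold and 1 gained it (Calcrl in neutrophils with thinned counts). The cause was not tested.

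Genes called in neutrophils numbered 248, 137 in 1 fit over 12 libraries and 138 to 234 without 1 library. In macrophages they numbered 699, 1407 with quality weights, 1050 in 1 fit over 12 libraries and 347 to 762 without 1 library. In the interaction they numbered 255, 520 with quality weights and 149 to 327 without 1 library, and called members 0, 1 with quality weights and 0 to 1 without 1 library. Without TMM the median of all genes moved from 0.02 to -0.10 in the interaction and from -0.03 to 0.07 between saline cells.

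Deviations of same-numbered libraries had r of -0.01 to 0.14 in neutrophils and -0.18 to 0.28 in macrophages. Differently numbered libraries gave -0.14 to 0.11 and -0.41 to 0.40. So few pairs cannot show whether a number marks a pair, and the main tests did not take the numbers as pairs. With the replicate block, 254 genes were called in neutrophils, 905 in macrophages, 288 in the interaction and 7369 between saline cells, and no call of a member changed. Depth limited Irf4, which had 0 to 5 reads in macrophages.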
